A study of Homo sapiens with 2 samples.

Results

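Molecular chaperones of the heat shock and DNAJ families were followed in beta-like islet clusters (enriched beta clusters, eBCs) grown from human embryonic stem cells. The family was taken by gene symbol: genes beginning with HSPA, HSPB, HSP90, DNAJA, DNAJB or DNAJC, together with HSPH1, HSPD1, HSPE1 and HSF1, without the endoplasmic reticulum chaperones HSPA5, HSP90B1, DNAJB9, DNAJB11 and DNAJC3, the nucleotide exchange factor HSPBP1, and pseudogenes. This gave 68 of the 33694 genes counted. The cells came from iSOX9KO, a clone made in Mel1-INS-GFP, a MEL-1 embryonic stem cell line with GFP in the insulin gene. Both libraries carry this background: constitutive guides against SOX9 and a Cas9 cassette in the AAVS1 locus that doxycycline (DOX) switches on. Cells labelled no DOX received none, and those labelled DOX received 2 ug/ml from day 12 of differentiation, before endocrine cells appear. By the study's methods, GFP-bright cells were reaggregated into eBCs, and live cells were sorted before capture on the 10X Genomics platform. Each condition was 1 library, so there was no spread between replicates and no test between the labels. Intervals are 95% intervals and cover counting error alone.

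The library labelled no DOX held 550240855 unique molecular identifiers (UMIs) in 30288 barcodes and that labelled DOX 520849221 in 31817 barcodes, of which 21808 and 23118 were kept as cells. SOX9, the targeted gene, had 1147 UMIs in the kept cells with the DOX label and 946 UMIs in those without it. Levels are given as CPM, the UMIs of a gene per 1000000 UMIs. The SOX9 count was thus not lower with the DOX label. Small Cas9 deletions need not remove a transcript, the count was not divided by cell class, and the editing itself was not tested. Libraries are named here by their labels, and every direction rests on them. An exchange of the labels was not tested and would turn every ratio between the libraries. The mitochondrial share of UMIs was 9.38% with the DOX label and 8.6% without it. Of the barcode sequences, 369 occurred in both libraries. Markers of pluripotent cells, mesenchyme, endothelium and acinar cells summed to between 0.833 and 5.65 CPM per library and set, and none of these genes reached 5 CPM in a whole library. Within classes, LIN28A (26.3 CPM), CPA1 (21.8 CPM) and PRSS1 (11.6 CPM) were present in duct-like cells, and CLDN5 (12.3 CPM) and COL1A2 (11.2 CPM) in delta-like cells. Clustering without the chaperone genes gave 6 classes named from 14 markers each: beta-like, beta cell progenitor-like (with FEV and TPH1), alpha-like, delta-like, proliferating progenitor-like and duct-like cells. Metallothioneins (MT1B, MT1M, MT1H and MT1G) stood beside IAPP among the leading genes of the beta-like cluster, and the chemokine CCL2 among those of the duct-like cluster. Beta-like cells numbered 6549 without DOX and 9494 with it, alpha-like cells 5165 and 4217, and delta-like cells 2643 and 1943. A further cluster of 1151 and 1185 cells was rich in mitochondrial UMIs and was not named.

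Chaperones of the HSP70 type bind and release exposed hydrophobic stretches of unfolded protein in an ATP cycle. J proteins (DNAJA, DNAJB, DNAJC) bring them their clients and start ATP hydrolysis, and HSP110 proteins release the ADP. HSP90 proteins finish the folding of kinases and receptors, the chaperonin of HSPD1 and HSPE1 folds proteins within mitochondria, and small heat shock proteins (HSPB) hold unfolded protein in solution. When unfolded protein accumulates, HSF1 forms trimers and binds heat shock elements, which are inverted repeats of a short unit, in front of genes such as HSPA1A, HSPA1B, HSPA6 and DNAJB1. HSPA8 is the relative that cells make at all times, although heat can raise it further. Beta cells are known for a heavy load of secretory protein, which is mostly served by the endoplasmic reticulum chaperones that were left out here.

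Promoter windows of RefSeq (GRCh38.p14, from 250 bases before to 50 after the start of the reference transcript, on the strand of the gene) are given for the inducible HSP70 genes and DNAJB1, which the comparison of the labels turns on, and for HSPA8 as their constitutive relative. Capitals mark the motif GAANNTTC, which is its own reverse complement, and its extension by a further inverted unit on either side.
HSPA1A, chr6:31815293-31815592, plus strand: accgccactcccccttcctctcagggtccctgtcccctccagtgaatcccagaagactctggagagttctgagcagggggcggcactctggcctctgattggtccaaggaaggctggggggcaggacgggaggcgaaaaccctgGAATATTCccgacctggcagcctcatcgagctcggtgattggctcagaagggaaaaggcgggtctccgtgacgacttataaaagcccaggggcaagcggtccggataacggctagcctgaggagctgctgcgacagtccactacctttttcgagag
HSPA1B, chr6:31827488-31827787, plus strand: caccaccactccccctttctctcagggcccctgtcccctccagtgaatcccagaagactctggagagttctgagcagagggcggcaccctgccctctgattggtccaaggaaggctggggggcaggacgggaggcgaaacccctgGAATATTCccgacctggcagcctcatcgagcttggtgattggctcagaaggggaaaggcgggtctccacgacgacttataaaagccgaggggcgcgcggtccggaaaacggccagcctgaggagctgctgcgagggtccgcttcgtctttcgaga
HSPA6, chr1:161524290-161524589, plus strand: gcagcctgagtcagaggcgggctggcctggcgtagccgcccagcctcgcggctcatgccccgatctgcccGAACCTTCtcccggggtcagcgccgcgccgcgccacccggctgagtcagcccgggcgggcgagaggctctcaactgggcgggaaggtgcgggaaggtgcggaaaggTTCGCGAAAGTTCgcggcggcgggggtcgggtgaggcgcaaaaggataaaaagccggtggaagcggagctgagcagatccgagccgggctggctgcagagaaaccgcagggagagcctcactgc
DNAJB1, chr19:14518348-14518647, minus strand: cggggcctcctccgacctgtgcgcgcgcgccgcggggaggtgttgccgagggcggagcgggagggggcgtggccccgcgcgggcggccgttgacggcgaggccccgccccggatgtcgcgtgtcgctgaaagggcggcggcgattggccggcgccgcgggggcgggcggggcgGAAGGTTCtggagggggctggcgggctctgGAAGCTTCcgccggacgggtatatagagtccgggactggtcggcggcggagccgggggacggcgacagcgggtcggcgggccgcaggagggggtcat
HSPA8, chr11:123062087-123062386, minus strand: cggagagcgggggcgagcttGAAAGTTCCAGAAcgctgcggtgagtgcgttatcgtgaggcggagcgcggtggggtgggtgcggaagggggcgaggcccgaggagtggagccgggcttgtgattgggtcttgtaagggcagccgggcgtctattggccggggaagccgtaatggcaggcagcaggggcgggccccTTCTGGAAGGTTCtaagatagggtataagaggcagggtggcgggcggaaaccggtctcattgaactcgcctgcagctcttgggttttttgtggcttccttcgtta
The window of HSPA1A held 1 motif, which began 106 bases before the start of the transcript, and that of HSPA1B held the same letters at 105 bases. HSPA6 held the extended motif and a separate motif further upstream, DNAJB1 held 2 motifs, and HSPA8 held the extended motif at 2 separate places. The motif was found in 16 of 56 members whose window lay at the annotated start (28.6%) and in 6.77% of all 35116 windows. The extended motif was found in 6 of these 56 members (10.7%) and in 0.49% of all windows. Its 6 members were DNAJA1, DNAJB6, HSP90AA1, HSPA6, HSPA8 and HSPD1. Only exact letters were searched, so a further unit with a changed letter was not counted in HSPA1A, HSPA1B, DNAJB1 or any other window. The window of HSPA1L overlaps that of HSPA1A on the other strand and shares its motif. A match in letters is a description and not evidence of binding.

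HSPA1A and HSPA1B, HSP70 genes that respond sharply to heat, were lower in the library labelled DOX, while the other chaperones that reached 5 CPM lay within 1.26-fold of equality. Of the 68 members, 48 reached 5 CPM in at least 1 library. Of these, 2 were past 1.5-fold lower in the library labelled DOX, HSPA1A and HSPA1B, beside 0.402% of the 10444 genes that reached 5 CPM. None of the 48 was past 1.5-fold higher, beside 0.201% of genes. The median log2 ratio, DOX over no DOX, was -0.01 over the 48 members and -0.01 over all genes tested. The members together took 0.548% of UMIs without DOX and 0.546% with it.

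**Figure D1:**
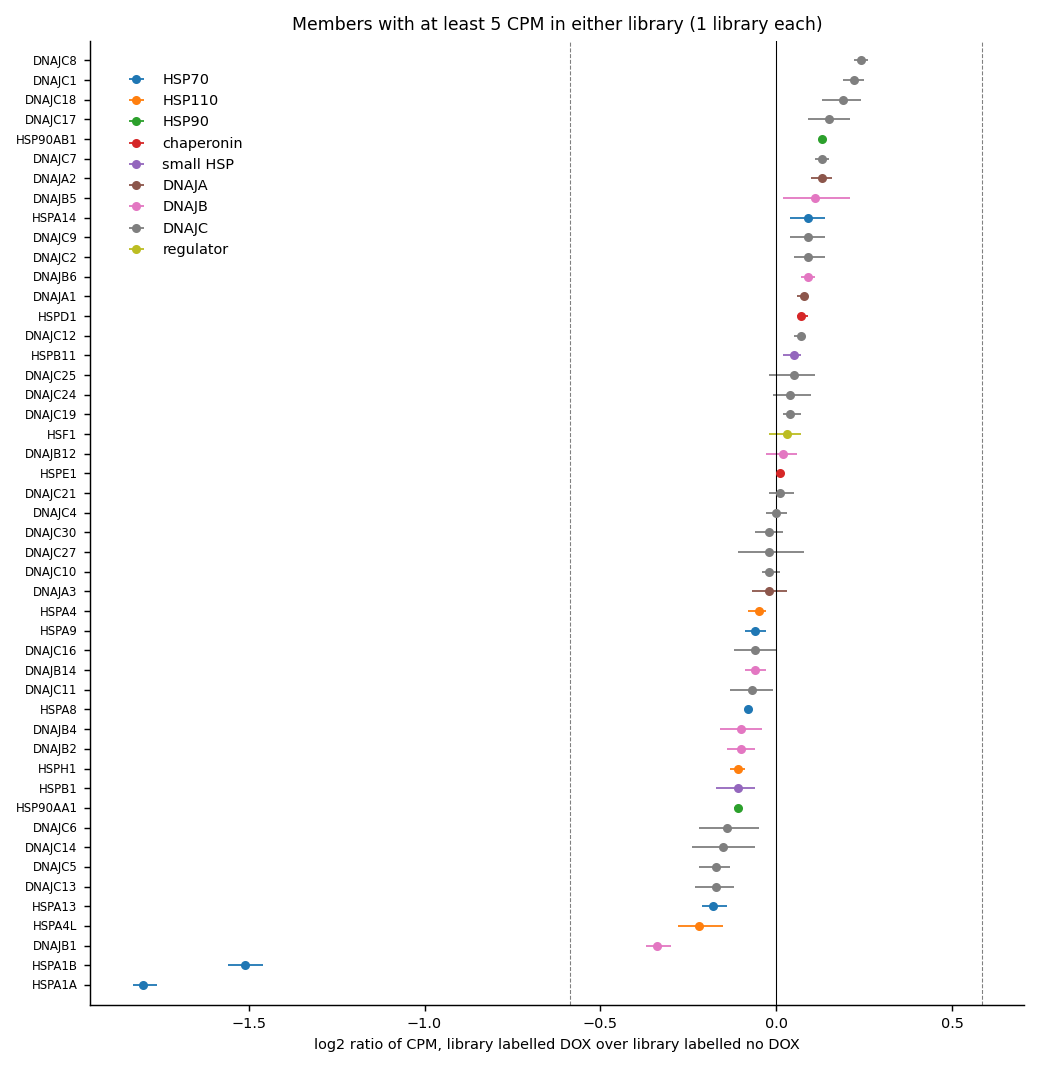
Log2 ratio of CPM, library labelled DOX over library labelled no DOX (x axis), for the 48 members with at least 5 CPM (y axis, ordered by ratio, coloured by role). Bars are 95% counting intervals and dashed lines mark 1.5-fold. HSPA1A (-1.80) and HSPA1B (-1.51) lie far to the left, and the other 46 members lie between -0.34 and 0.24.

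HSPA1A (ENSG00000204389, chromosome 6 from 31815543 to 31817946, plus strand, GENCODE 44 on GRCh38) had 29843 UMIs or 94.6 CPM in the library labelled no DOX. It had 8267 UMIs or 27.2 CPM in the library labelled DOX, a log2 ratio of -1.80 (-1.83 to -1.76). HSPA1B (ENSG00000204388, chromosome 6 from 31827738 to 31830254, plus strand) encodes a nearly identical protein. It had 39.7 CPM without DOX and 13.9 CPM with it, a log2 ratio of -1.51 (-1.56 to -1.46). Reads from these copies can be assigned to either or dropped, so their sum is the firmer value. The sum was 134.3 CPM without DOX and 41.2 CPM with it, which was 3.26-fold lower with the DOX label. Ordered from the lowest ratio, DOX over no DOX, among 10444 genes, HSPA1A was at position 2 and HSPA1B at position 4. With the labels exchanged these would be their positions from the highest ratio. LYZ stood at position 1 and MT1B, a metallothionein, at position 3. GAST followed at position 5 and PTGER3, a prostaglandin receptor gene, at position 6 with a log2 ratio of -1.13.

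HSPA6 (ENSG00000173110, chromosome 1 from 161524540 to 161526894, plus strand), an HSP70 gene that is nearly silent without stress, stayed below 5 CPM and is named here after its values were seen. Its reads can also match a near copy in the genome, so its level is uncertain. It had 572 UMIs (1.81 CPM) without DOX and 70 UMIs (0.231 CPM) with it, a log2 ratio of -2.97 (-3.35 to -2.61). These UMIs sat in few cells. Without DOX, 299 of 21808 cells (1.37%, exact Clopper-Pearson interval 1.22 to 1.53%) held a HSPA6 UMI. With DOX, 15 of 23118 cells (0.0649%, 0.0363 to 0.107%) did. These shares come from cells that were not thinned, with median depths of 13957.5 UMIs without DOX and 12667 with it. A single cell of the unnamed cluster held 48 of the 70 UMIs in the library labelled DOX. This cell also held 95 HSPA1A, 72 HSPH1, 26 DNAJB1, 24 HSPB1 and 12 BAG3 UMIs among its 20599 UMIs. The no DOX cell with the most HSPA6, a delta-like cell, held 44 HSPA6, 39 HSPA1A and 4 HSPH1 UMIs. With the highest cell of each library left out, HSPA6 stood at 1.67 CPM without DOX and 0.0725 CPM with it, a log2 ratio of -4.53 (-5.22 to -3.92).

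The other 4 HSP70 members that reached 5 CPM lay within 1.2-fold of equality. HSPA8, the constitutive cytosolic member, had 478.4 CPM without DOX and 451.8 CPM with it, a log2 ratio of -0.08. HSPA9, the mitochondrial member, had a log2 ratio of -0.06. HSPA13, which resides in microsomes, stood at 41.5 and 36.7 CPM, a log2 ratio of -0.18. HSPA14, a partner of the ribosome, had a log2 ratio of 0.09. HSPA1L, the neighbour of HSPA1A whose RNA is known from testis, was at 0.922 CPM in both libraries (log2 ratio 0.00, interval -0.24 to 0.24). Among the distant HSP70 relatives, HSPA12A had 970 UMIs without DOX and 1058 with it (0.18, interval 0.05 to 0.31), and HSPA12B had 33 and 47 UMIs (0.57, interval -0.11 to 1.25). Among HSP110 proteins, HSPH1 had 131.0 CPM without DOX and 121.0 CPM with it, HSPA4 a log2 ratio of -0.05 and HSPA4L one of -0.22 (-0.28 to -0.15).

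HSP90 members moved apart by small amounts. HSP90AA1, the inducible cytosolic form, had 913.7 CPM without DOX and 845.6 CPM with it, a log2 ratio of -0.11. HSP90AB1, the constitutive form, had 1111.1 and 1219.9 CPM, a log2 ratio of 0.13, and was higher with the DOX label in 6 of 6 classes. The chaperonin genes HSPD1 (0.07) and HSPE1 (0.01), which share a bidirectional promoter, had log2 ratios close to 0. HSPB1, the most studied small heat shock protein, had 19.8 CPM without DOX and 18.3 CPM with it, a log2 ratio of -0.11. With the classes weighted equally its ratio was 0.12, and it was lower with the DOX label in 3 classes and higher in 3. HSF1, the transcription factor of the heat shock response, had 26.2 and 26.7 CPM, a log2 ratio of 0.03 (-0.02 to 0.07).

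Among the 41 J proteins, 32 reached 5 CPM and none was past 1.5-fold, beside 0.402% of all genes tested lower and 0.201% higher. The median log2 ratio of these 32 was 0.01. DNAJB1, the heat-inducible partner of HSPA1A, had the lowest ratio of them. It had 54.5 CPM without DOX and 43.1 CPM with it, a log2 ratio of -0.34 (-0.37 to -0.30), and was lower with the DOX label in 5 of 6 classes. DNAJC13, an endosomal protein, and DNAJC5, the cysteine string protein of secretory vesicles, each had a log2 ratio of -0.17. DNAJC8, a nuclear protein linked to splicing, had the highest ratio, at 95.8 CPM without DOX and 113.2 CPM with it (0.24, interval 0.22 to 0.26). DNAJC1, an endoplasmic reticulum membrane protein, followed at 0.22 and DNAJC18 at 0.19. DNAJC17 (0.15), DNAJC7 and DNAJA2 (0.13 each), DNAJB5 (0.11) and DNAJC9, DNAJC2 and DNAJB6 (0.09 each) came next. DNAJA1, which is induced by heat in many cells, stood at 270.5 and 285.2 CPM, a log2 ratio of 0.08, and DNAJC6, the auxilin of clathrin uncoating, at -0.14.

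Divided by textbook response to heat, 13 of the 14 heat-inducible members reached 5 CPM. These include HSPA8 and HSP90AB1, which are also made without heat. Of the 13, 2 were past 1.5-fold lower, HSPA1A and HSPA1B, and none was higher, beside 0.402% and 0.201% of all genes tested. The median log2 ratio of the 13 was -0.11. With the classes weighted equally HSPH1 was at -0.00, HSPA8 at -0.02, HSP90AA1 at -0.07, DNAJB1 at -0.19 and HSPB1 at 0.12. Each of these was higher than its value over all cells. DNAJA1 (0.05) and DNAJB4 (-0.24) were lower than theirs. With these weights the middle value of the 13 was that of HSPA8, at -0.02, in place of -0.11 over all cells. Of the 54 other members, 35 reached 5 CPM and none passed 1.5-fold, which is close to the shares of all genes. Their median log2 ratio over all cells was 0.02, and it was not taken again with the classes weighted equally. Without HSPA1A and HSPA1B, 45 of 46 members lay within 1.2-fold of equality, beside 94.9% of all genes tested, so this steadiness was close to that of other genes, and DNAJB1 was the exception at 1.26-fold. The remaining 20 members were below 5 CPM in both libraries, and DNAJB8 and HSPB3 had no UMI in either, which leaves upper limits of 0.0117 CPM without DOX and 0.0122 CPM with it. Among these low members, named after their values were seen, DNAJC15 had 16 UMIs without DOX and 36 with it. Over both libraries together, 36 UMIs of DNAJC15 lay in duct-like cells. HSPB6 had a log2 ratio of 0.55 and DNAJC28 one of 0.28, and each was at 0.24 with the classes weighted equally.

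Genes outside the rule that work with these chaperones were also near equality. Of 32 co-chaperones and partners (among them BAG3, STIP1 and the TRiC subunits), 29 reached 5 CPM and had a median log2 ratio of -0.02. None of the 29 passed 1.5-fold, beside 0.402% of all genes tested lower and 0.201% higher. The 20 endoplasmic reticulum chaperones and unfolded protein response genes also had none past 1.5-fold, with a median of -0.04. With shares of all genes this small, having none past the fold did not set either list apart. BAG3, a classical heat shock target, was at 5.44 CPM without DOX and 5.30 CPM with it. Of 16 immediate early genes that reached 5 CPM, which answer fresh stimuli such as cell dissociation, 2 were past 1.5-fold lower with the DOX label, EGR2 (-0.81) and EGR3 (-0.66), and the median was -0.05. With the classes weighted equally they were at -0.59 and -0.38, so that EGR3 was no longer past the fold, and EGR2 reached 5 CPM only in the library labelled no DOX. The 8 listed metallothioneins, which bind zinc and copper, all had lower values with the DOX label, with log2 ratios from -1.05 to -0.25 and a median of -0.40. MT1B, at a log2 ratio of -1.57, was not on this list. The listed genes summed to 2919.8 CPM without DOX and 2218.6 CPM with it. The part of these genes in the HSPA1A and HSPA1B difference was not tested. Median depth was 13957.5 UMIs per cell without DOX and 12667 with it, and with each cell thinned to 5000 UMIs the log2 ratio of HSPA1A was -1.70.

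HSPA1A and HSPA1B were lower with the DOX label in each of the 6 classes, but by unequal amounts. In beta-like cells HSPA1A was at 107.9 CPM without DOX and 23.1 CPM with it, a log2 ratio of -2.22 (-2.28 to -2.17). Alpha-like cells had the highest value without DOX, 116.7 CPM, and 31.5 CPM with it (-1.89, interval -1.97 to -1.81). Delta-like cells had 71.8 and 19.9 CPM (-1.85). The progenitor classes differed less between the labels. Beta cell progenitor-like cells had 68.0 CPM without DOX and 34.2 CPM with it, a log2 ratio of -0.99 (-1.06 to -0.92), and proliferating progenitor-like cells had 76.9 and 39.4 CPM (-0.96, interval -1.18 to -0.75). Duct-like cells, with 153 and 178 cells, had 50.5 and 19.0 CPM (-1.41, interval -1.88 to -0.95). The counting intervals of the progenitor classes did not overlap those of beta-like, alpha-like and delta-like cells. This order did not hold for every cluster at the finer resolution of 0.5. There the smaller beta cell progenitor-like cluster had a log2 ratio of -1.33 (-1.53 to -1.13) and the larger -0.82 (-0.90 to -0.73), while a small alpha-like cluster of 797 and 585 cells had -0.86 (-1.39 to -0.36). HSPA1B also differed less between the labels in beta cell progenitor-like cells, with log2 ratios of -1.86 in beta-like, -1.75 in alpha-like, -1.77 in delta-like and -0.76 in beta cell progenitor-like cells. Proliferating progenitor-like cells had -1.21 and duct-like cells -1.02, so the smaller differences of HSPA1B were not limited to the progenitor classes. Ordered by HSPA1A level, alpha-like and beta-like cells came first without DOX. With the DOX label proliferating progenitor-like and beta cell progenitor-like cells came first, followed by alpha-like and then beta-like cells.

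**Figure D2:**
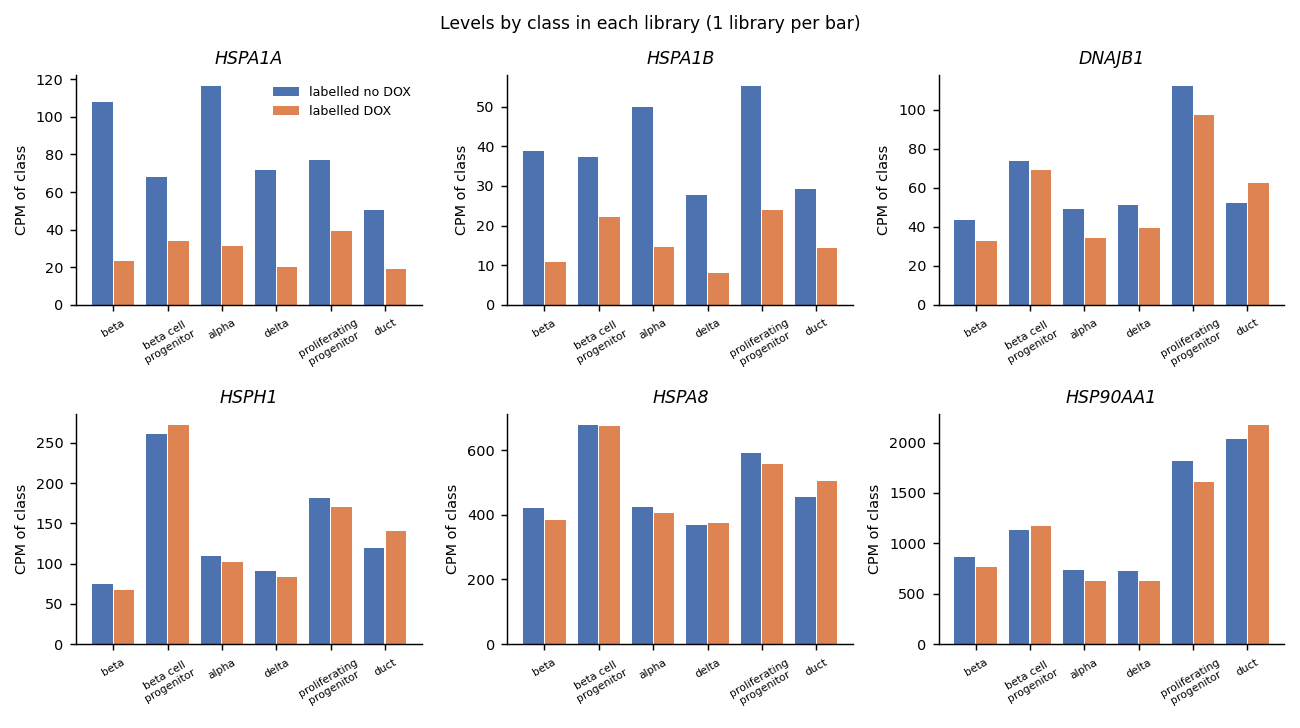
CPM (y axis, from 0) of 6 members in the 6 named classes (x axis) of the library labelled no DOX (blue) and DOX (orange), 1 library per bar. HSPA1A and HSPA1B are lower with the DOX label in every class, whereas HSPH1, HSPA8 and HSP90AA1 differ mainly between classes.

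Among members that reached 5 CPM in a class in either library, HSPA1A and HSPA1B were the only ones past 1.5-fold in 5 of the 6 classes. The background in beta-like cells was 0.613% of genes lower and 0.225% higher. It was 0.398% and 0.315% in beta cell progenitor-like cells, 0.61% and 0.38% in alpha-like cells, 0.33% and 0.19% in delta-like cells, and 1.67% and 1.52% in proliferating progenitor-like cells. In duct-like cells, where 9.45% of genes were past the fold lower and 7.56% higher, DNAJC12 (18.6 and 34.4 CPM, log2 ratio 0.89, interval 0.38 to 1.42), DNAJC15 (3.16 and 9.18 CPM) and DNAJC22 (3.95 and 6.23 CPM) were past it on the higher side. DNAJC15 and DNAJC22 reached 5 CPM only in the library labelled DOX, and the interval of DNAJC22 included 0 (-0.52 to 1.93). These duct-like cells were few, and the share called among all genes was high. DNAJB1 differed most in alpha-like cells, at 49.0 CPM without DOX and 34.4 CPM with it (-0.51, interval -0.60 to -0.43). In beta cell progenitor-like cells it had 73.9 and 69.2 CPM (-0.09). HSP90AA1 had 866.0 CPM without DOX and 765.6 CPM with it in beta-like cells (-0.18) whereas its beta cell progenitor-like values were 1136.0 and 1174.4 CPM (0.05). In the unnamed cluster HSPA1A was at 45.3 CPM without DOX and 48.7 CPM with it, and at 18.1 CPM once the single cell with 95 HSPA1A UMIs was left out.

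To see how the HSPA1A and HSPA1B RNA was spread over cells, each cell was thinned to 5000 UMIs, since depth alone changes the share of cells with a UMI. Without DOX, 43.6% of 6204 beta-like cells held at least 1 UMI of either gene, and with DOX 15.3% of 9196 did. Cells with 3 to 9 UMIs made up 6.88% (6.27 to 7.54%) of beta-like cells without DOX and 0.174% (0.0995 to 0.282%) with it. Before thinning, the median depth of beta-like cells was 18031 UMIs without DOX and 14681.5 with it, and the shares for HSPA1A and HSPA1B are given only from thinned cells. The shares of cells with a UMI were 48.9% and 20.8% in alpha-like cells, 35.0% and 12.4% in delta-like cells and 35.6% and 24.9% in beta cell progenitor-like cells. Proliferating progenitor-like cells had 41.7% and 22.6%, and duct-like cells 27.2% and 13.6%. No class is known to lack these genes, so the share that free RNA contributes could not be set apart. The RNA was not held by a handful of cells: the richest 1% of beta-like cells without DOX held 8.08% of the HSPA1A and HSPA1B UMIs, and the highest thinned cell held 15.

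**Figure D3:**
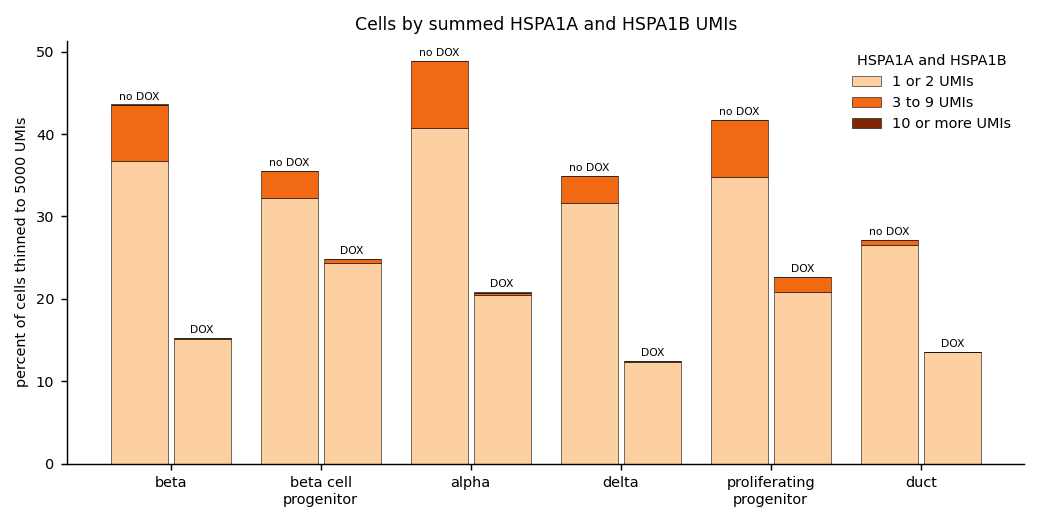
Percent of cells, each thinned to 5000 UMIs (y axis), that held 1 or 2, 3 to 9, or 10 or more HSPA1A and HSPA1B UMIs, by class (x axis) and library (left bar no DOX, right bar DOX). The part with 3 to 9 UMIs is 6.88% of beta-like cells without DOX and 0.174% with it.

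The next question was which other chaperones went with HSPA1A and HSPA1B from cell to cell. In beta-like cells of the library labelled no DOX, 428 cells with 3 or more HSPA1A and HSPA1B UMIs were set beside 3502 cells with 0. Of 40 other members tested, 1 was past 1.5-fold higher, DNAJB1, beside 1.73% of genes. DNAJB1 was at 36.3 CPM in cells with 0, 45.5 CPM in cells with 1 or 2 and 62.6 CPM in cells with 3 or more, a log2 ratio of 0.79 (0.51 to 1.06). DNAJB12 had a log2 ratio of 0.45 (0.00 to 0.88) and DNAJB14 one of 0.31 (0.06 to 0.56). HSP90AA1 was at 834.2, 884.9 and 938.3 CPM (0.17, interval 0.10 to 0.24). HSPA8 had a log2 ratio of 0.07 (-0.03 to 0.17), HSPD1 one of 0.06 (-0.06 to 0.17) and HSPH1 one of 0.00 (-0.25 to 0.24). The median over the members was 0.01, and none was past the fold lower, beside 2.54% of genes. In alpha-like cells 2 of 42 members were past the fold higher, beside 2.9% of genes, DNAJB1 (0.59, interval 0.30 to 0.88) and DNAJC18 (0.62, interval 0.04 to 1.17), and none lower, beside 2.85%. In beta cell progenitor-like cells 1 of 44 was past it higher, HSPB1 (0.95, interval 0.19 to 1.64), beside 5.04% of genes, and 1 lower, DNAJA3 (-0.72, interval -1.60 to 0.05), beside 9.6%. DNAJB1 was at 0.13 (-0.22 to 0.47) there. With so few members past the fold, the counts in these classes could not be set apart from the shares of all genes. In the library labelled DOX only 16 beta-like cells held 3 or more, and DNAJB1 had a log2 ratio of 0.17 (-2.11 to 1.72) there, an interval too wide to place it.

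Cells with at least 1 UMI were therefore also set beside cells with 0, a division added after the data were seen. DNAJB1 then had a log2 ratio of 0.41 (0.25 to 0.57) without DOX and -0.06 (-0.27 to 0.14) with it. DNAJC11, not listed as heat-inducible, had 0.40 (0.10 to 0.69) and 0.23 (-0.10 to 0.55). HSP90AA1 had 0.10 (0.06 to 0.13) and 0.08 (0.04 to 0.12). At least 1 UMI was held by 43.6% of thinned cells without DOX and 15.3% with it, and 3 to 9 UMIs by 6.88% and 0.174%. Cells with 1 or more thus held fewer such UMIs with the DOX label, and ratios in this paragraph do not compare like groups between the labels. Without DOX the interval lay above 0 for 5 of 46 members, beside 5.82% of genes, and below 0 for 1, DNAJC12 (-0.09), beside 3.67%. With DOX it lay above 0 for 7, beside 5.06% of genes, and below 0 for 1, DNAJC5 (-0.32), beside 2.27%. HSPA8 was among the 7, at 0.14 (0.08 to 0.20), as were HSPD1 (0.11, 0.04 to 0.17) and DNAJA1 (0.11, 0.04 to 0.18). HSP90AB1, HSP90AA1 and HSPE1 were too. All of these are abundant, from DNAJA1 at 285.2 CPM to HSP90AB1 at 1219.9 CPM in the library labelled DOX. Counting intervals clear 0 more easily at such levels, and the share of all genes was not taken at like levels. The largest of the 7 was DNAJC30, at 0.22 (0.01 to 0.43). Of the 16 immediate early genes, 16 were above 0 in the library labelled no DOX, 11 of them with an interval above 0, with a median log2 ratio of 0.43, among them FOS (0.81) and JUN (0.55). In the library labelled DOX 10 of 16 were above 0, 3 of them with an interval above 0, with a median of 0.04. Their summed level in beta-like cells without DOX was 1217.4 CPM at 0 UMIs, 1515.8 CPM at 1 or 2 and 2082.9 CPM at 3 to 9. Metallothioneins summed to 4440.8, 4729.8 and 6075.9 CPM in the same bins. The part of these genes in the pattern of DNAJB1 was not tested.

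**Figure D4:**
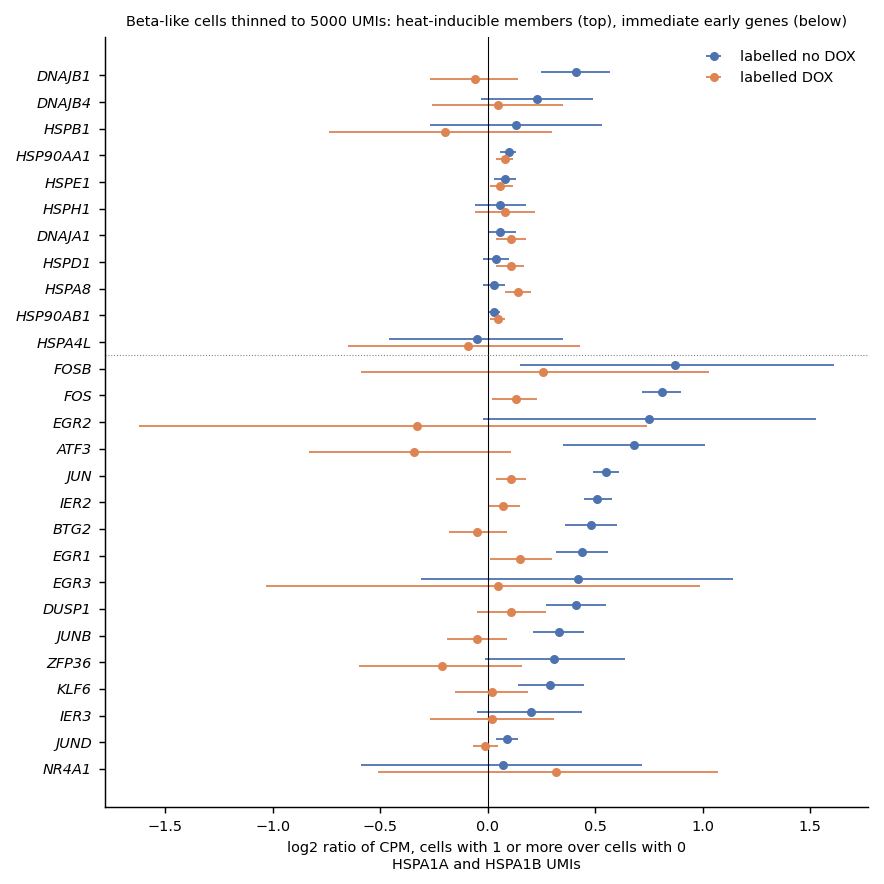
Log2 ratio of CPM between beta-like cells with 1 or more and with 0 HSPA1A and HSPA1B UMIs (x axis) for heat-inducible members (above the dotted line) and immediate early genes (below it), with 95% counting intervals, in the library labelled no DOX (blue) and DOX (orange). DNAJB1 lies at 0.41 and FOS at 0.81 without DOX, and at -0.06 and 0.13 with it. Cells with 1 or more UMIs held fewer such UMIs with the DOX label, so the colours do not compare like groups. Members not listed as heat-inducible are not drawn, among them DNAJC11 (0.40 without DOX).

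Apart from the labels, the classes themselves differed in their chaperones. The members summed to 8452.0 CPM in duct-like cells without DOX and 9233.4 CPM with it, and to 4266.1 and 4269.8 CPM in delta-like cells. The sum was 5346.9 and 5116.1 CPM for beta-like cells, and for the beta cell progenitor-like class it was 6749.9 and 7057.4 CPM. Proliferating progenitor-like cells had 7348.0 and 7088.8 CPM, and alpha-like cells 4789.6 and 4759.5 CPM. Much of each sum came from HSP90AA1 and HSP90AB1. Without DOX these were at 2038.1 and 1975.7 CPM in duct-like cells and at 723.7 and 916.0 CPM in delta-like cells. Of 45 members that reached 10 CPM in a class, 24 (53.3%) had their lowest level in delta-like cells, beside 26.3% of all genes at that level. None had its highest level in beta-like cells, beside 4.39% of genes, while 20 (44.4%) had it in beta cell progenitor-like cells, beside 42.1%.

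A class preference was read where the highest class had at least 2-fold the median of the other classes and was the same class in both libraries. Of the 45 members, 14 (31.1%) met this, beside 40.9% of 10738 genes, a share below that of all genes. Duct-like cells were the highest class of 6 of them, beta cell progenitor-like cells of 4, proliferating progenitor-like cells of 3 and alpha-like cells of 1. The duct-like cluster was also rich in proliferation markers: all 14 markers of the proliferating class were at a log2 fold of 1 or more in it, with a mean of 3.51, beside a mean of 6.72 for its own markers. The part of dividing cells in the duct-like levels was not tested.

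**Figure D5:**
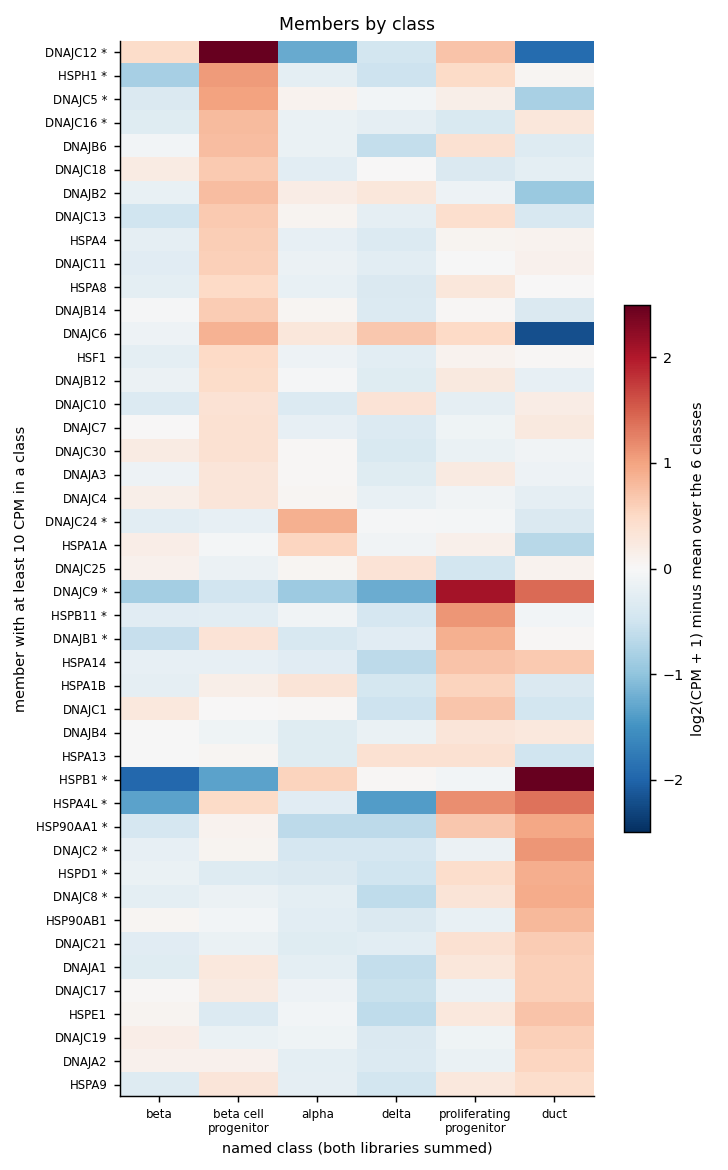
Colour shows log2(CPM + 1) of each of 45 members (rows) in the 6 named classes (columns, libraries summed) minus the mean of that member over the classes, and an asterisk marks the 14 members with a class preference. Rows are ordered by highest class and then by fold. HSPB1 in duct-like cells exceeds the end of the colour scale and is drawn in its darkest red. DNAJC12 stands out in beta cell progenitor-like cells, HSPB1 in duct-like cells and DNAJC9 in proliferating progenitor-like cells.

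DNAJC12 (ENSG00000108176, chromosome 10 from 67796669 to 67838188, minus strand), a J protein that serves the aromatic amino acid hydroxylases, was highest in the beta cell progenitor-like class, whose markers include the hydroxylase TPH1. It was at 604.4 CPM there, 7.89-fold the median of the other classes, and at 173.5 CPM in the next class, the proliferating progenitor-like cells. Beta-like cells had 145.7 CPM, delta-like cells 76.6 CPM, alpha-like cells 43.7 CPM and duct-like cells 27.2 CPM. In beta cell progenitor-like cells it stood at 565.6 CPM without DOX and 649.4 CPM with it (0.20, interval 0.18 to 0.22). At the finer resolution of 0.5, 2 clusters took this class name. They did not hold all cells of the class, which had 5740 cells without DOX and 5701 with it. The larger, with 4475 and 4333 cells, had 591.8 and 647.2 CPM (0.13, interval 0.11 to 0.15). The smaller, with 492 cells without DOX and 792 with it, had 1226.9 and 1248.5 CPM (0.03, interval -0.02 to 0.07), so the difference within each cluster was smaller than that of the class. HSPH1 was at 266.1 CPM in the same class, 2.5-fold the median of the others, with its lowest level, 70.4 CPM, in beta-like cells. DNAJC5 was at 50.9 CPM and DNAJC16 at 28.4 CPM in it.

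HSPB1, which holds unfolded proteins and binds actin filaments, had its highest level among duct-like cells (199.7 CPM) and its lowest among beta-like cells (6.60 CPM). Alpha-like cells came next with 42.5 CPM, and the value in duct-like cells was 7.32-fold the median of the others. The order held in each library, with 187.5 CPM without DOX and 209.8 CPM with it. HSP90AA1 (2113.5 CPM, 2.61-fold), HSPD1 (702.5 CPM, 2.37-fold), DNAJC8 (234.6 CPM, 2.26-fold) and DNAJC2, a ribosome-bound J protein (64.8 CPM, 2.54-fold), were also highest there. HSPA4L had 46.9 CPM there, and the proliferating progenitor-like class came next at 41.1 CPM, a log2 difference whose interval included 0 (0.19, interval -0.03 to 0.40).

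DNAJC9, a histone chaperone of dividing cells, was at 126.7 CPM in proliferating progenitor-like cells, 8.02-fold the median of the others, followed by 80.0 CPM in duct-like cells. HSPB11, an intraflagellar transport subunit despite its name, was at 190.8 CPM in the proliferating class and DNAJB1 at 105.4 CPM. DNAJB1 was at 71.7 CPM in the next class, the beta cell progenitor-like cells, and lowest in beta-like cells at 37.8 CPM. DNAJC24, which acts in diphthamide synthesis, was at 31.5 CPM in alpha-like cells, 2.23-fold the median of the others. HSP90AB1, at 2156.4 CPM in duct-like cells and 1271.6 CPM in beta-like cells, lay just outside the fold at 1.99. HSF1 was at 38.3 CPM in beta cell progenitor-like cells, 1.57-fold the median of the others, and lowest in delta-like cells with 22.0 CPM.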

How the data were processed

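The deposited values are raw UMI counts for every gene in every barcode, from 1 10X Genomics library per condition. The file headers name Cell Ranger 3.0.2, the study's methods name kallisto and bustools, and the annotation release is not given in the sources used here; the submitters' notes name GRCh38. Gene positions were taken from GENCODE 44 by Ensembl identifier. Cells were barcodes of 1000 UMIs or more, less the doublets called by Scrublet (scanpy 1.11.5, default settings), which left 21808 of 29703 barcodes without DOX and 23118 of 31456 with it. Counts were scaled to 10000 per cell and log-transformed, variable genes were selected, chaperone genes were dropped from them, total UMIs and mitochondrial share were regressed out, and 50 components with 3 neighbours per library entered Leiden clustering (leidenalg 0.10.2, resolution 0.2; umap-learn 0.5.12). The balanced neighbour step was rebuilt. Classes were named from 14 markers each, with a mean log2 fold of 1 or more over the rest, 3 or more markers at that fold and 1 or more among the 10 leading genes. These markers came from a gene list the study made on these libraries.

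Levels are UMIs of a group per 1000000 UMIs (CPM) with exact Poisson intervals. Ratios have exact conditional binomial intervals and shares exact Clopper-Pearson intervals (scipy 1.17.1, numpy 2.4.6, pandas 2.3.3, matplotlib 3.10.9). Ratios were read at 5 CPM in either library and 1.5-fold, class preference at 10 CPM and 2-fold. The ratio code was tested on simulated data. The members, gene lists and markers were chosen with earlier results of these data known. Named genes are HSPA1A, HSPA1B and DNAJB1, the 8 lowest and 8 highest ratios at 10 CPM, members with a class preference and a fixed set by role. Alternatives changed the UMI minimum, doublet removal, mitochondrial share, scaling, class weights, thinning, minimum level, fold, variable genes and clustering.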

Additional observations from a re-analysis of the deposited data

How the results depend on the processing

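The numbers of members past 1.5-fold (2 lower, 0 higher with the DOX label) were unchanged in 10 of 10 alternatives for each, including 2-fold, and the median log2 ratio of members stayed between -0.01 and 0.02 in 9 of 9. HSPA1A ranged from -1.81 to -1.56 and HSPA1B from -1.51 to -1.34, with the smallest differences when the classes were weighted equally. With the doublets kept HSPA1A was at -1.76. DNAJB1 ranged from -0.34 to -0.19 and HSPH1 from -0.12 to -0.00. At 1.5-fold, 34 members had a class preference in place of 14, and 11 was the lowest number over the alternatives. With doublets kept no proliferating progenitor-like class was named, and the preferences of DNAJB1, DNAJC8, DNAJC9, HSPB11 and HSPD1 were lost.

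In beta-like cells without DOX, the DNAJB1 log2 ratio between cells with 3 or more and with 0 HSPA1A and HSPA1B UMIs was 0.79. It was 1.36 at 2500 UMIs per cell (114 cells with 3 or more), 0.13 in beta cell progenitor-like cells and 0.41 for 1 or more UMIs. With the DOX label the value of 0.17 rested on 16 cells. Leaving out cells above 20% mitochondrial UMIs gave 2.07, beta cell progenitor-like cells gave 0.98 and alpha-like cells 0.14, and the value was -0.06 for 1 or more UMIs, and at 2500 UMIs no DNAJB1 UMI was left in the 6 cells, so no value could be given. The unnamed cluster left out and the division at 1 UMI were chosen after seeing the data. No paired analysis was possible because each condition was 1 library.

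Culture, differentiation and capture each occurred once per label and cannot be told apart from DOX. Members under 5 CPM and the duct-like and proliferating progenitor-like cells rest on few UMIs.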
